A study of Mus musculus with 6 samples.

Results

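The OAS and OAS-like antiviral enzymes were followed in mouse mammary tumours with and without serglycin. The genes named were Oas1a, Oas1b, Oas1g, Oas2, Oas3, Oasl1 and Oasl2, and a gene entered when a probe set carried its symbol and no other. This held for 6 of the 7 genes, out of 22180 genes on the arrays. Each of the 6 had a single such probe set, so the step that keeps the brightest probe set of a gene chose nothing. The probe set listed for Oas1a is also listed for Oas1g and is described separately.

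The tumours came from 3 PyMT+ SG-/- mice, which lack serglycin, and 3 PyMT+ SG+/- mice, which are heterozygous for it. All 6 mice had the PyMT transgene, a viral oncogene (middle T of polyoma virus) that causes mammary tumours. Every sample was snap-frozen breast tumour tissue, and strain, age and the promoter of the transgene are unknown here, since no source used gives them. Serglycin is a proteoglycan of secretory granules in blood cells and some tumour cells, and the study looked for genes that change when it is lost.

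OAS enzymes are sensors of double-stranded RNA, a by-product of virus replication that can also form from a cell's own transcripts. When such RNA binds, an active enzyme joins ATP into short oligoadenylates, second messengers of the antiviral response. The genes are classical interferon-stimulated genes: type I interferon acts through STAT and IRF factors on a response element in their promoters. In a tumour they can be transcribed by cancer cells and by stromal and immune cells alike.

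The targeted gene and the tissue were checked first. The log2 RMA level of Srgn was 5.07, 5.04 and 4.89 in SG-/- replicates 1 to 3, against 6.76, 6.43 and 6.35 in the SG+/- replicates 1 to 3. Every SG-/- tumour was thus below every SG+/- tumour, with a difference of -1.52 ± 0.15 (SE; limma adjusted p = 0.467). An exact permutation test over the tumours (two-sided) gave p = 0.1, the lowest it can give for 3 against 3. The direction of each difference rests on the genotype labels, which the Srgn values match. The series description gives nearly all altered genes as lower in SG-/- tumours. In the deposited values 317 genes were higher and 152 lower there at an unadjusted limma p under 0.05, so by that count the majority ran the other way. Other counts leaned toward lower levels. Without overlap between genotypes 708 genes were lower and 630 higher, and by their means 46.3% of all genes were higher. The OAS genes were among the higher ones, and why the count by p differs from the description was not tested. Luminal epithelial markers were present in both genotypes, with Krt8 at 12.2 and Epcam at 12.1 in SG-/- tumours and Krt8 at 12.1 and Epcam at 12.2 in SG+/- tumours. SG-/- replicate 3 stood apart in its spread, with an interquartile range of 2.53 against 2.90 to 3.25 in the other arrays. Its results are also given without it. Nothing in the labels pairs the mice, and 3 arrays per genotype limit the precision of each difference.

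All 6 measured OAS genes were higher in SG-/- tumours by their means, against 46.3% of all genes. Their differences ran from 0.50 to 1.14 on the log2 scale with a median of 0.69, while the median over all genes was -0.01. In 5 of the 6 every SG-/- tumour lay above every SG+/- tumour, which held for 2.84% of all genes. The same 5 had an unadjusted limma p under 0.05, against 1.43% of all genes on that side. None of the 6 passed the adjustment over all genes, nor did any other gene (0% of 22180, limma adjusted p = 1.00 for each member). Ranked by limma p among all genes, Oas2 was 13, Oasl2 23, Oas3 47, Oas1g 70, Oasl1 165 and Oas1b 789. In bulk tissue, more cells of a type and more RNA per cell cannot be told apart.

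**Figure D1:**
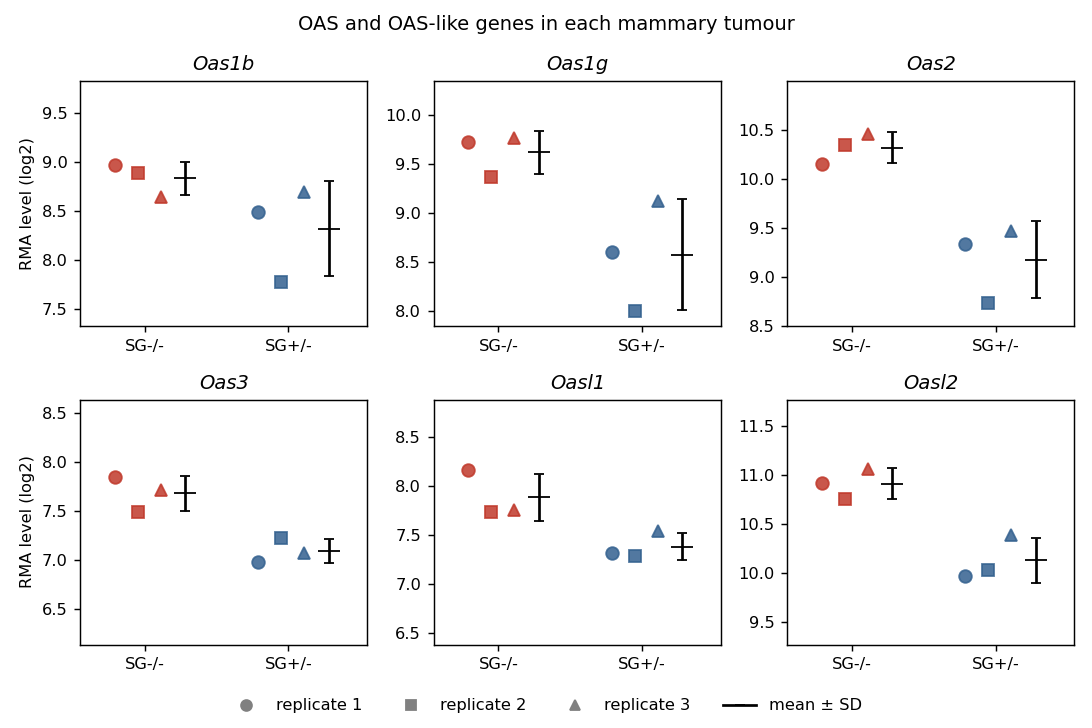
RMA levels (log2) of the 6 measured OAS genes in each tumour, SG-/- left and SG+/- right, with the mean and SD of each genotype beside the points. Each panel spans the same log2 range; the genotypes are apart in 5 panels, and in Oas1b SG-/- replicate 3 (8.64) lies just below SG+/- replicate 3 (8.69).

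The synthetases of the Oas1 locus come first. Oas1g encodes an active mouse oligoadenylate synthetase of the small, single-unit type. Its level was 9.72, 9.36 and 9.76 in SG-/- replicates 1 to 3. In SG+/- replicates 1 to 3 it was 8.60, 7.99 and 9.12. The genotypes did not overlap, and the SG+/- tumours were spread more widely than the SG-/- tumours, with replicate 2 lowest. Oas1g averaged 9.61 ± 0.22 in SG-/- tumours, against 8.57 ± 0.56 in SG+/- tumours (SD, n = 3 per genotype). The difference was 1.04 ± 0.29 (SE), or 2.06-fold, with a 95% confidence interval from 1.29-fold to 3.29-fold (limma unadjusted p = 0.00808). The separation of the genotypes was small beside this spread, at 0.24 between the lowest SG-/- and the highest SG+/- tumour.

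Oas1b is the gene at which many laboratory mouse strains carry a truncating allele that leaves them susceptible to flaviviruses. RefSeq annotates the copy in its C57BL/6J reference as a transcribed pseudogene. The array level was 8.97, 8.88 and 8.64 in SG-/- replicates 1 to 3. The SG+/- replicates 1 to 3 had 8.49, 7.77 and 8.69. The genotypes overlapped by a narrow margin, because SG+/- replicate 3 exceeded SG-/- replicate 3. Oas1b averaged 8.83 ± 0.17 in SG-/- tumours, against 8.32 ± 0.48 in SG+/- tumours (SD, n = 3 per genotype). Its difference of 0.52 ± 0.25 (SE) had a 95% confidence interval from -0.07 to 1.11 (limma unadjusted p = 0.0771). The size rested on SG+/- replicate 2, and without that tumour it was 0.24.

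The probe set listed for both Oas1a and Oas1g cannot be assigned to either gene. It read 8.189, 7.999 and 8.114 in SG-/- replicates 1 to 3, against 7.45, 7.12 and 7.65 in the SG+/- replicates 1 to 3. Its genotypes did not overlap, and it averaged 8.10 ± 0.10 in SG-/- and 7.41 ± 0.27 in SG+/- tumours (SD, n = 3 per genotype), 0.69 apart. It is not an independent reading of the locus, since Oas1g also has the probe set described above. Which transcripts of the similar Oas1 copies bind each probe was not tested, so the gene behind each Oas1 signal is uncertain.

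The Oas1 locus lies at 120730333 to 120921648 on chromosome 5 (GRCm38.p6), together with Oas2 and Oas3, and holds 5 further Oas1 copies with probe sets of their own. Oas1d, known from the mouse ovary, had 3.50 ± 0.08 in SG-/- and 3.45 ± 0.27 in SG+/- tumours. Oas1f had 4.02 ± 0.26 in SG-/- and 4.05 ± 0.16 in SG+/- tumours. Oas1h had 3.79 ± 0.06 in SG-/- and 3.81 ± 0.15 in SG+/- tumours (SD, n = 3 per genotype, for these copies). These levels lie below 6.09, the 40th percentile of all probe sets, where RMA compresses differences. Oas1e, on average also below that level, had 6.08 ± 0.35 in SG-/- and 5.94 ± 0.21 in SG+/- tumours. Oas1c, alone among these copies above it on average, had 6.38 ± 0.21 in SG-/- and 6.19 ± 0.31 in SG+/- tumours. The 5 differences ran from -0.04 to 0.19 with a median of 0.05, all 5 overlapped between genotypes, and 0 had an unadjusted limma p under 0.05 or passed the adjustment.

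The promoters of these copies are shown because they differ in matches to the element through which interferon acts. RefSeq's GRCm38.p6 table held a window for 5 of the 7 OAS genes (Oas1a, Oas1g, Oas3, Oasl1 and Oasl2) and for Oas1c, Oas1f and Oas1h. The core of the interferon-stimulated response element was searched on both strands as GAAANNGAAA, which reads TTTCNNTTTC on the other strand, over 300 bases around the start. It was found in 3.44% of all 32851 windows and in 3 of the 5 windows of the OAS genes. Matches may overlap each other and are not evidence of binding. The start is the one the table uses, and RefSeq's annotation of the gene begins further upstream for some: by 19 bases for Oas1a, 25 for Oas3, 26 for Oas1c, 8 for Oasl2 and 97 for Oasl1. Windows around other starts were not searched. The 120 bases before the table's start are given in the gene's direction, with matches in capitals.
Oas1g, chr5:120887614-120887733, minus strand: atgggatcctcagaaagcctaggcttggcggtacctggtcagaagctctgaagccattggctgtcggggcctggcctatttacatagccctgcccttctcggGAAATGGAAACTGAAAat
Oas1a, chr5:120907526-120907645, minus strand: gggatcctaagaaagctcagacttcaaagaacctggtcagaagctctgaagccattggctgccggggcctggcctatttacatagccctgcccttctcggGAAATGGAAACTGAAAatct
Oas3, chr5:120777660-120777779, minus strand: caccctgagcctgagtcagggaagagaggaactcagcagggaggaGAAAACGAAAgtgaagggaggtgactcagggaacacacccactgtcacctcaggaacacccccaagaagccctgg
Oas1c, chr5:120812515-120812634, minus strand: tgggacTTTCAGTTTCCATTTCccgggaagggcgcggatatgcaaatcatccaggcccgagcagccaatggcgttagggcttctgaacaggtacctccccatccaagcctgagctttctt
Oas1h, chr5:120861302-120861421, plus strand: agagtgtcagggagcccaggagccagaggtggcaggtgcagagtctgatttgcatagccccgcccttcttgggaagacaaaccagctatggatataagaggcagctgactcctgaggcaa

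Oas1g and Oas1a carry the same run of 2 overlapping matches close to the start, at bases -18 to -3 of Oas1g and -20 to -5 of Oas1a. Over 118 aligned bases before the start the 2 sequences are 91.5% identical. The Oas3 match lies at bases -75 to -66. Oas1c holds 2 overlapping matches in the other orientation, at bases -114 to -99, and its transcript differed by 0.19 between genotypes. No match to these letters was present in the windows of Oas1f, Oas1h, Oasl1 or Oasl2. The Oasl1 window lies partly inside the annotated gene, so it may miss the bases before other starts. The core of the gamma-activated site, the element bound by STAT dimers after interferon gamma, was searched as TTCNNNGAA, which reads the same on both strands. It occurred in 8.30% of all windows and, among the windows of OAS genes, in that of Oas1a, at bases -98 to -90.

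Oas2 and Oas3 encode the larger synthetases. Oas2 is built of a pair of OAS units, and Oas3 of further repeats, which in human OAS3 favour long double-stranded RNA. Oas2 had the greatest difference of the 6 genes, with 10.15, 10.35 and 10.46 in SG-/- replicates 1 to 3. Its SG+/- replicates 1 to 3 had 9.33, 8.73 and 9.46. All SG-/- tumours were above all SG+/- tumours by at least 0.69. The means were 10.32 ± 0.16 in SG-/- tumours, against 9.18 ± 0.39 in SG+/- tumours (SD, n = 3 per genotype). The difference was 1.14 ± 0.21 (SE), or 2.21-fold with a 95% confidence interval from 1.56-fold to 3.13-fold (limma unadjusted p = 0.00104). By size it ranked 34 among the differences of all 22180 genes toward higher levels in SG-/- tumours.

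Oas3 had 7.85, 7.49 and 7.71 in SG-/- replicates 1 to 3. It had 6.99, 7.23 and 7.08 in SG+/- replicates 1 to 3. The genotypes did not overlap, and SG+/- replicate 2, lowest of all tumours for Oas1b, Oas1g, Oas2 and Oasl1, was the highest SG+/- tumour for Oas3. The means were 7.68 ± 0.18 in SG-/- and 7.10 ± 0.12 in SG+/- tumours (SD, n = 3 per genotype). The difference of 0.59 ± 0.15 (SE) was 1.503-fold (95% confidence interval from 1.18-fold to 1.91-fold; limma unadjusted p = 0.00498).

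The OAS-like genes encode proteins with an OAS unit followed by ubiquitin-like domains. In mice, Oasl2 retains synthetase activity, while Oasl1 lacks it and restrains translation of Irf7, the factor that amplifies interferon production. Both lie side by side on chromosome 5, Oasl2 at 114896926 to 114912245 and Oasl1 at 114923143 to 114937911 (GRCm38.p6). Oasl2 had 10.91, 10.75 and 11.06 in SG-/- replicates 1 to 3. In SG+/- replicates 1 to 3 it had 9.96, 10.03 and 10.39. The genotypes were apart by 0.36 at their nearest tumours. Oasl2 averaged 10.91 ± 0.16 in SG-/- and 10.12 ± 0.23 in SG+/- tumours (SD, n = 3 per genotype), a difference of 0.78 ± 0.16 (SE). This was 1.72-fold, with a 95% confidence interval from 1.32-fold to 2.25-fold (limma unadjusted p = 0.00197).

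Oasl1 had 8.16, 7.73 and 7.76 in SG-/- replicates 1 to 3. Its SG+/- replicates 1 to 3 had 7.32, 7.29 and 7.54. SG-/- replicate 1 stood well above the others, and the nearest tumours of the genotypes were 0.19 apart. The means were 7.88 ± 0.24 in SG-/- and 7.38 ± 0.14 in SG+/- tumours (SD, n = 3 per genotype). The difference of 0.50 ± 0.16 (SE) was 1.42-fold (95% confidence interval from 1.08-fold to 1.85-fold; limma unadjusted p = 0.0180). The confidence intervals of all 6 OAS genes overlapped, and whether the genes differ from each other in their response was not tested.

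**Figure D2:**
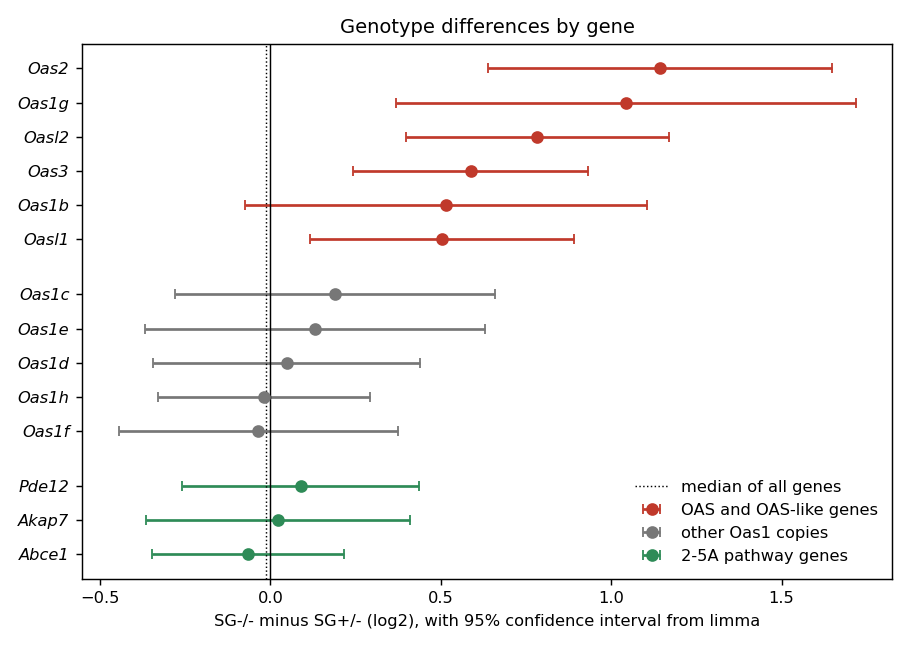
SG-/- minus SG+/- differences (log2) with 95% confidence intervals from limma for the 6 OAS genes, the other Oas1 copies and 3 genes of the oligoadenylate pathway. The 6 OAS genes lie between 0.50 and 1.14, and the interval of Oas1b alone among them includes 0; the other 8 genes lie between -0.07 and 0.19 with intervals that include 0.

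The tumours kept a partly shared order across the family. SG-/- replicates 1 and 2 exceeded every SG+/- tumour in 6 of 6 genes and SG-/- replicate 3 in 5 of 6. Over all genes, SG-/- replicate 2 did so in 19.7%, and that share was not computed for replicates 1 and 3. SG-/- replicate 1 was the highest of the 6 tumours for 3 genes (Oas1b, Oas3 and Oasl1) and SG-/- replicate 3 for the other 3. Among SG+/- tumours, replicate 3 was the highest for 5 genes, and replicate 2 the lowest for 4. Relative to the SG+/- mean of each gene, the median over the family was 0.79, 0.59 and 0.78 in SG-/- replicates 1 to 3, against -0.02, -0.27 and 0.27 in the SG+/- replicates 1 to 3. Likeness of pattern was measured as the root mean square distance between gene-centred profiles over the 6 tumours. By it, Oas3 and Oasl1 were the closest pair (0.15 on the log2 scale) and Oas1g and Oas3 the farthest (0.44), while Oas1g and Oas2 were 0.21 apart.

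Leaving out single tumours moved the sizes but not the direction. In a gene whose genotypes do not overlap, leaving out tumours cannot reverse the direction. The eBayes settings, the dim filter, the mean over probe sets and the fit of every probe set could not move any of the differences. Those settings therefore do not test the direction. All 90 differences, from 6 genes under 15 alternatives, were positive, and 0 passed the adjustment over all genes (smallest limma adjusted p = 0.173, for Oas2 with array weights). Without SG-/- replicate 3 the median over the family was 0.66, and all 6 genes were free of overlap. In that setting 12.5% of all genes were free of overlap and higher in SG-/- tumours. With array weights, which limma estimates from the same values and which were lowest for SG-/- replicate 3, Oas1g was 0.66 higher and Oas2 1.04. The weights were 0.96, 4.95 and 0.20 in SG-/- replicates 1 to 3, against 0.73, 0.74 and 1.99 in SG+/- replicates 1 to 3. The SG-/- side of that setting, and the smallest adjusted p it gave, thus rested mainly on SG-/- replicate 2.

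**Figure D3:**
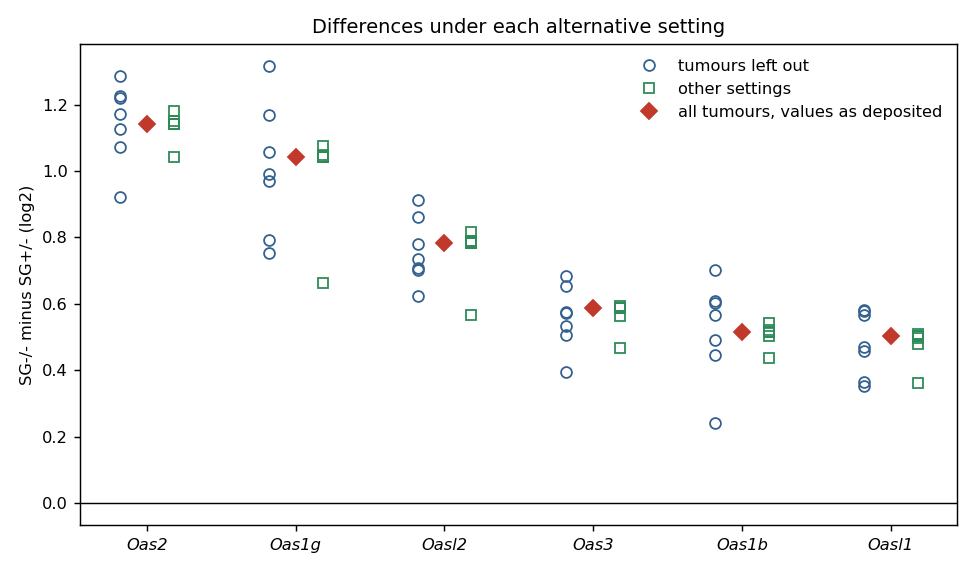
SG-/- minus SG+/- differences (log2) of the 6 OAS genes with all tumours (diamonds), with tumours left out (circles) and under the other settings (squares). All values lie above 0, and the lowest, 0.24, is Oas1b without SG+/- replicate 2.

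The genes around the OAS loci were described to see the setting of the differences on the chromosome. The 5 nearest measured genes on either side of the Oas1, Oas2 and Oas3 cluster had differences from -0.19 to 0.21 with a median of -0.06. Those around Oasl1 and Oasl2 ran from -0.14 to 0.04 with a median of -0.04. Of these 20 neighbours, 7 were higher in SG-/- tumours by their means and 0 had an unadjusted limma p under 0.05. One of them, Ddx54, an RNA helicase gene, was free of overlap and lower in SG-/- tumours, where such genes made up 3.19% of all genes. It had 9.41 ± 0.14 in SG-/- and 9.60 ± 0.11 in SG+/- tumours (SD, n = 3 per genotype; limma unadjusted p = 0.212). Trafd1, a regulator of innate immune signalling that is itself induced by interferon, had 10.21 ± 0.12 in SG-/- and 9.996 ± 0.22 in SG+/- tumours.

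The wider interferon pathway was read from lists chosen with earlier results of these data known. Of 66 measured genes on them, 18 had an unadjusted limma p under 0.05 and a higher level in SG-/- tumours, and 0 were lower at that p, against 1.43% and 0.685% of all genes. None passed the adjustment over all genes. Of the genes listed with the oligoadenylate pathway, 3 were measured. Abce1, an ATP-binding protein that recycles ribosomes, had 11.16 ± 0.09 in SG-/- and 11.23 ± 0.04 in SG+/- tumours. Pde12, a phosphodiesterase that degrades oligoadenylates, had 7.44 ± 0.11 in SG-/- and 7.35 ± 0.19 in SG+/- tumours. Akap7, a kinase anchor protein with the same degrading activity in mice, had 7.56 ± 0.22 in SG-/- and 7.54 ± 0.17 in SG+/- tumours (SD, n = 3 per genotype). All 3 overlapped between genotypes, with differences from -0.07 to 0.09.

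The array levels of interferon ligands and receptors differed little, but many ligands were dim. Of 13 measured ligands, 5 were higher and 8 lower in SG-/- tumours by their means, the median was -0.07, and 0 had an unadjusted limma p under 0.05. Of these 13 ligands, 6 had a mean above 6.09 over all tumours. For the others, which include Ifnb1, Ifna11 and Ifnk, RMA compresses differences, so their values cannot show that the transcripts were unchanged. Ifnb1, which encodes interferon beta, had 4.37 ± 0.41 in SG-/- and 4.36 ± 0.32 in SG+/- tumours (SD, n = 3 per genotype). The 3 ligands with the smallest p were Ifna12 (difference -0.21), Ifna11 (0.31) and Ifnk (0.23). Ifna12 was the one ligand without overlap and was lower in SG-/- tumours, where such genes made up 3.19% of all genes. Of 9 receptor chains and kinases, 3 were higher and 6 lower by their means, with a median of -0.08, and none was free of overlap. Ifnar1, a chain of the type I receptor, differed by -0.08, Jak1 by -0.21, and Jak2 and Ifngr1, a chain of the interferon gamma receptor, by 0.15 and 0.16.

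Among STATs, IRFs and feedback genes, 5 of 7 measured members were higher in SG-/- tumours, 4 of them with an unadjusted limma p under 0.05, and the median was 0.39. Stat2 and Irf9, partners in the complex that binds the response element, were 0.54 ± 0.20 and 0.39 ± 0.14 (SE) higher, and Irf7 was 0.60 ± 0.19 higher. Usp18, which shuts down type I receptor signalling and is itself interferon-induced, was 0.93 ± 0.18 higher, with 10.06 ± 0.16 in SG-/- and 9.12 ± 0.27 in SG+/- tumours (SD, n = 3 per genotype). The list's other members, Irf1, Irf3 and Socs1, differed by less than 0.05 in either direction. Of 10 sensors of RNA and DNA, 9 were higher and 2 had an unadjusted limma p under 0.05, with a median of 0.20. Ddx58, the RNA helicase RIG-I, was 0.43 ± 0.13 (SE) higher, Zbp1, a sensor of Z-form nucleic acid, 0.50 ± 0.15, and Ifih1, the helicase MDA5, 0.28 ± 0.13.

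Other effector families of the same response were set beside the OAS genes. Of 11 measured IFIT, MX and ISG15 effectors, 11 were higher, 7 had an unadjusted limma p under 0.05 and the median was 0.47. Beside this list and the GTPases below, 46.3% of all genes were higher by their means and 1.43% higher at that p. Isg15, a ubiquitin-like modifier, was 0.59 ± 0.14 (SE) higher, Ifit1, which binds foreign RNA ends, 0.75 ± 0.16, and Rsad2, which encodes viperin, 0.83 ± 0.15. Of 8 measured GBP and IRG GTPases, 8 were higher, 5 had an unadjusted limma p under 0.05 and the median was 0.52. Iigp1 was 0.91 ± 0.14, Gbp3 0.83 ± 0.13 and Igtp 0.67 ± 0.15 (SE) higher. The OAS median was 0.69. Whether these families differ from the OAS genes was not tested.

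**Figure D4:**
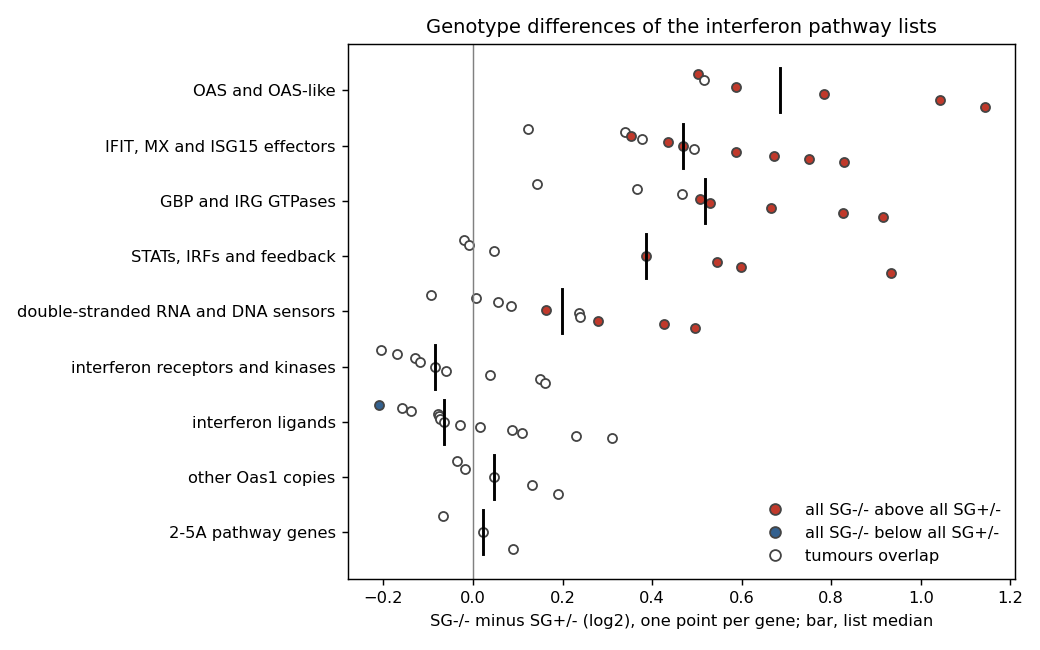
SG-/- minus SG+/- differences (log2) of each gene, grouped by list, with the list median as a bar; red points are genes with every SG-/- tumour above every SG+/- tumour, and the blue point is the reverse. The OAS median (0.69) and those of the effector, GTPase and STAT lists (0.39 to 0.52) lie to the right of 0, and those of receptors (-0.08) and ligands (-0.07) just to its left.

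The genes whose tumour-by-tumour pattern was closest to the mean OAS profile were sought among 14854 other genes with a mean above 6.09. The closest was Cmpk2, a mitochondrial nucleotide kinase induced by interferon, at a distance of 0.09 (log2, over 6 tumours), where the median distance was 0.47. It had 9.88, 9.52 and 9.66 in SG-/- replicates 1 to 3, against 9.07, 8.79 and 9.18 in the SG+/- replicates 1 to 3. Next came Gbp3, Herc6, which encodes the ligase that attaches Isg15 in mice, Rsad2, Armcx2, Il2ra, which encodes a chain of the interleukin-2 receptor, Usp18 and Inpp5j, an inositol phosphatase gene, at 0.11 to 0.14. Among the OAS genes themselves the distance to their mean profile ran from 0.12 for Oasl2 to 0.25 for Oas2. With quantile normalization applied again, 6 of these 8 genes were again among the 8 closest.

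Mean levels of markers of other cell types also differed between genotypes, and they are given beside the OAS genes. None passed the adjustment over all genes. At an unadjusted limma p under 0.05, 2 of 8 macrophage, 2 of 6 endothelial and 3 of 7 fibroblast markers were higher. So were 2 of 7 T and NK, 1 of 7 luminal and 3 of 8 salivary markers, with 1 salivary marker lower. The other marker lists held 0. Over all genes 1.43% were higher at that p and 46.3% by their means. The part of each of these cell types and of salivary tissue in the OAS differences was not tested. The 8 macrophage markers were all higher in SG-/- tumours by their means, and their mean level ranged from 8.62 to 9.56 in SG-/- and from 8.51 to 8.70 in SG+/- tumours. In SG-/- replicates 1 to 3, 8, 7 and 3 of the 8 exceeded every SG+/- tumour. Their medians there were 0.83, 0.40 and 0.05 above the SG+/- mean. In SG-/- replicate 3, 2 of the 8 were below every SG+/- tumour. Over all genes, SG-/- replicate 2 exceeded every SG+/- tumour in 19.7%. That share stands beside the marker counts here and below, and it was not computed for replicates 1 and 3. The 6 endothelial markers were all higher by their means, with mean levels of 8.19 to 8.66 in SG-/- and 7.90 to 8.12 in SG+/- tumours. In SG-/- replicates 1 to 3, 6, 6 and 4 of the 6 exceeded every SG+/- tumour.

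The 8 salivary gland genes, of tissue next to the mammary fat pads, had mean levels of 7.31 to 9.27 in SG-/- and 6.39 to 7.09 in SG+/- tumours. All 3 SG-/- tumours held salivary genes above every SG+/- tumour, 6, 3 and 5 of the 8 in replicates 1 to 3, but not the same ones. In the same order, 2, 2 and 1 of the 8 lay below every SG+/- tumour. Dcpp2 differed by -2.54 and was below every SG+/- tumour in all SG-/- tumours, in replicate 3 by a narrow margin. Smr2 differed by -0.64, with overlap. Klk1, a kallikrein of salivary ducts, was highest in SG-/- replicate 2, at 10.40, against a mean of 4.27 in SG+/- tumours. Prol1, a salivary and lacrimal gland gene, was also highest there, at 10.86, against 6.57 in SG+/- tumours. Bpifa2, a parotid secretory protein, had 13.54, 7.26 and 13.64 in SG-/- replicates 1 to 3, against 5.98 to 6.47 in SG+/- tumours. The median over the list, 2.74, -0.05 and 2.14 in SG-/- replicates 1 to 3, does not show these genes of replicate 2.

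The 7 fibroblast markers were all higher by their means in SG-/- tumours, with mean levels of 9.72 to 10.73 in SG-/- and 9.34 to 9.70 in SG+/- tumours. In SG-/- replicates 1 to 3, 7, 3 and 6 of the 7 exceeded every SG+/- tumour. The 3 in replicate 2 were Fap (7.56, against 7.04 to 7.19 in SG+/- tumours), Dcn (11.09, against 9.78 to 10.65) and Postn (12.19, against 11.09 to 11.77), while 2 of the 7 lay below every SG+/- tumour there. The 5 myoepithelial markers were all higher by their means, with mean levels of 8.50 to 10.01 in SG-/- and 8.31 to 9.15 in SG+/- tumours. Their medians were 0.45, 1.17 and -0.28 in SG-/- replicates 1 to 3. The 5 adipocyte markers were all higher by their means, with mean levels of 6.48 to 7.16 in SG-/- and 6.11 to 6.71 in SG+/- tumours. All 5 exceeded every SG+/- tumour in SG-/- replicates 1 and 3.

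The 5 plasmacytoid dendritic cell markers, of cells specialised in making type I interferon, had mean levels of 7.64 to 7.87 in SG-/- and 7.36 to 7.60 in SG+/- tumours. In SG-/- replicates 1 to 3, 4, 3 and 2 of the 5 exceeded every SG+/- tumour. That list includes Bst2, itself interferon-induced. T and NK cell markers, 5 of 7 higher, had mean levels of 5.96 to 6.33 in SG-/- and 5.93 to 5.98 in SG+/- tumours, with medians of 0.26, 0.04 and 0.41 in SG-/- replicates 1 to 3. The 4 B and plasma cell markers were all higher by their means, with mean levels of 5.74 to 6.99 in SG-/- and 5.53 to 5.98 in SG+/- tumours. Their medians were 0.43, -0.10 and 1.35 in SG-/- replicates 1 to 3. Of 6 neutrophil markers 5 were higher, with mean levels of 5.85 to 6.36 in SG-/- and 5.91 to 6.09 in SG+/- tumours. Of 7 luminal epithelial markers 5 were higher, with mean levels of 11.43 to 11.58 in SG-/- and 11.23 to 11.55 in SG+/- tumours. Krt19, a luminal keratin among them, had 9.83 ± 0.39 in SG-/- and 8.94 ± 0.46 in SG+/- tumours (SD, n = 3 per genotype; limma unadjusted p = 0.0176), and its genotypes overlapped.

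**Figure D5:**
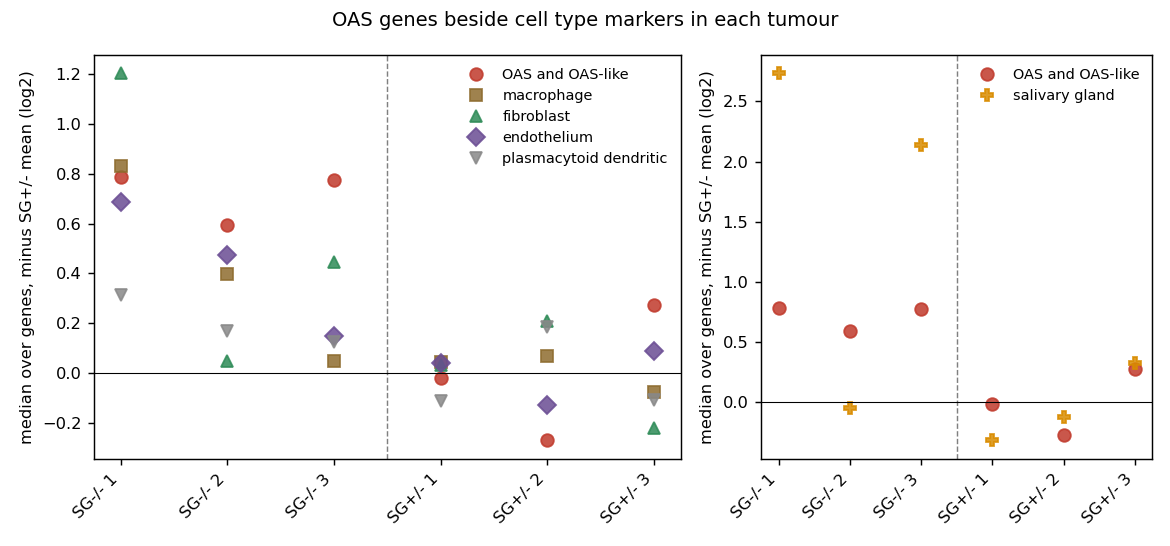
Median over the genes of each list in each tumour, minus each gene's SG+/- mean (log2), SG-/- tumours left and SG+/- tumours right; the right panel has its own scale for the salivary gland genes. The OAS median is between 0.59 and 0.79 in the SG-/- tumours, and the macrophage median is 0.83, 0.40 and 0.05 in SG-/- replicates 1 to 3; a list median can hide single genes, such as Klk1 at 10.40 in SG-/- replicate 2.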

How the data were processed

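RNA from 6 mammary tumours was hybridised to Affymetrix whole-transcript arrays, 1 array per tumour. The authors deposited 1 log2 value for each probe set and array, normalized by robust multi-array averaging (RMA), per the series design text. RMA corrects background, applies quantile normalization and summarises the probes of a set, so small differences of dim genes can be compressed. The deposited arrays still differed in distribution, with medians over all probe sets from 6.50 to 6.73. Olfactory and vomeronasal receptor genes, the silent receptors below, averaged 4.58, 5.13 and 5.87 in SG-/- replicates 1 to 3. In SG+/- replicates 1 to 3 they averaged 4.58, 5.63 and 5.50. Why the arrays differed was not tested. The submitters' processing notes list RMA, limma and Affymetrix Expression Console, with no version. Of 33793 probe sets, 23521 had 1 symbol in the platform annotation, 1814 had several and 8458 were not in the table used here. For each gene the probe set with the highest mean was kept, which left 22180 genes.

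Genotypes were compared as SG-/- minus SG+/- in limma 3.58.1 (R 4.3.3; lmFit, eBayes), two-sided, over all genes with Benjamini-Hochberg adjustment and a threshold of 0.05. The test was also run on simulated data, which took their gene means and variances from these values. The members and gene lists were chosen with earlier results of these data known, so they were described by counts and medians beside those of all genes. Most genes were named by rule: Srgn, all members, all other Oas1 copies and oligoadenylate pathway genes, the first measured and the 3 smallest limma p of each other pathway list, and the 8 genes closest in pattern. Irf9, Irf1, Irf3, Socs1, the single cell type and salivary markers and the neighbours Ddx54 and Trafd1 were named outside this rule, some of them for their values. Sequences came from RefSeq (GRCm38.p6). Alternatives were a repeated quantile normalization, centring on brighter genes, eBayes with trend and robust settings, array weights, a filter on dim genes (below 6.09 on average, the 40th percentile), the mean over a gene's probe sets, a fit of every probe set, a silent-receptor covariate and each tumour left out. Leaving out SG-/- tumours 1 and 3 together was added after the data were seen. Plots were made in Python 3.11.15 (matplotlib 3.10.9).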

Additional observations from a re-analysis of the deposited data

How the results depend on the processing

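No paired analysis was possible because the labels give no pairing of the mice, and replicate numbers here only name them. The number of OAS genes past the adjustment (0), their median difference and their count without overlap (5) stayed within the spread between replicates or within 1.5 times under all 15 alternatives. The median ran from 0.52 with array weights to 0.81 without SG+/- replicate 3, and the count without overlap was 5 or 6. That count is not like for like once tumours are left out: 2.84% of all genes were higher in SG-/- tumours without overlap with all tumours, 4.84% to 12.5% with 1 left out and 19.7% without SG-/- tumours 1 and 3. Of single genes, Oas1b was 0.24 without SG+/- replicate 2 and Oas1g 0.66 with array weights, each more than 1.5 times under its value with all tumours. With SG-/- tumours 1 and 3 both left out, a setting chosen after seeing the data, the lone SG-/- tumour is assumed to vary like the others. The OAS median was then 0.59, 2 OAS genes had an unadjusted limma p under 0.05, and the count of pathway genes at that p was 11 in place of 18. Srgn was past the threshold with the silent-receptor covariate (-1.53, limma adjusted p = 0.0446) and is left out by the dim filter. Over all genes, the number at an unadjusted p under 0.05 and higher in SG-/- tumours was 317, against 1498 with array weights and 639 with the receptor covariate. Leaving out SG-/- replicate 1 gave 201 and SG+/- replicate 3 gave 189, while 867 were counted without SG-/- replicate 3. The cause of these changes was not tested.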

Other observations

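The promoter search was also read for the other lists, over the genes with a window in the table. A match to the response element core, found in 3.44% of all windows, was present for 6 of 6 GBP and IRG genes, 5 of 8 IFIT, MX and ISG15 effectors, 6 of 13 interferon ligands, 3 of 7 sensors and 2 of 6 STATs, IRFs and feedback genes. It was present for 1 of 3 other Oas1 copies, 0 of 3 genes listed with the oligoadenylate pathway and 0 of 8 receptor chains and kinases. The gamma-activated site core, found in 8.30% of all windows, was present for 4 of 6 GBP and IRG genes, 6 of 13 ligands, 2 of 7 sensors, 2 of 8 receptor chains and kinases, 2 of 8 effectors and 1 of 6 STATs, IRFs and feedback genes. It was present for 1 of 5 OAS genes, 0 of 3 other Oas1 copies and 0 of 3 genes listed with the oligoadenylate pathway. A match is a description of the letters in the window and not of a site in use.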
